A study of Arabidopsis thaliana with 9 samples.

Results

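Messenger RNA of whole Arabidopsis thaliana seedlings of the mutant csu5-3 was compared with that of the wild type Col, with 3 libraries per genotype. All genes with a value of at least 1 FPKM (fragments per kilobase of a gene's exons, scaled to the library's total) in at least 3 of these 6 libraries were taken, which gave 18977 of the 32678 genes listed. Of the 13701 genes left out, 8111 were at 0 in all 6 libraries. Seedlings of both genotypes were in the Col-0 ecotype and spent 5 days under continuous white light of 14.59 μmol per square metre and second. A further mutant line, csu5-1, was grown alongside with 3 libraries and is given beside csu5-3 where it bears on the same genes. Each mutant is 1 line, and the labels say neither what change csu5-3 carries nor whether the replicates were separate cultures, so p-values measure only the spread between these libraries. The estimated depth was 39.0 to 41.9 M reads in the Col libraries and 38.7 to 43.0 M in the csu5-3 libraries.

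CSU5 is short for COP1 SUPPRESSOR 5. In darkness the ubiquitin ligase COP1 sends HY5 and other transcription factors of light-driven seedling development (photomorphogenesis) to degradation, and mutations that suppress a weak cop1 mutant mark further members of this pathway. CSU5 is known as WRKY32 (AT4G30935), a transcription factor whose WRKY domain binds W-boxes in promoters. The locus is not in the labels, and this identity is background knowledge of the study. The comparison of csu5-3 with Col asks which transcripts differ when this allele replaces the wild-type gene.

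WRKY32 itself fell in csu5-3. Its values were 8.48, 10.06 and 11.08 FPKM in the Col libraries and 4.58, 3.65 and 3.78 FPKM in the csu5-3 libraries. The highest csu5-3 library lay below the lowest Col library. The log2 fold change was −1.20 ± 0.12 (SE, limma, adjusted p = 0.00052), on the scale of log2(FPKM + 0.5) that all log2 values here use. In csu5-1 the values were 8.17, 8.22 and 7.96 FPKM, close below the Col range, and the log2 fold against Col was −0.18 (adjusted p = 0.22). Among the 11 tested genes of the WRKY group I family, to which WRKY32 belongs, it was the only one called. Of its relatives, WRKY3 was at −0.22 (adjusted p = 0.098) and WRKY19 at 0.28 (adjusted p = 0.10). Of the 20 tested genes next to WRKY32, 10 on each side, none was called by limma and 4 had an unadjusted p under 0.05, a share near the 22.2% (4219 genes) of all tested genes at this limit. Their log2 folds ran from −0.74 to 0.40. At an adjusted p of 0.05 stood 3 of the 20, against 5.37% of all tested genes. These were AT4G30845 at −0.74 (adjusted p = 0.038), AT4G30910 at −0.38 (adjusted p = 0.0087) and SIP3 at 0.23 (adjusted p = 0.023).

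Because a WRKY factor binds W-boxes, the 250 bases before the start are shown for WRKY32, for AT1G52000, which rose the most of the called genes, for AT3G01345, which fell the most, and for AT1G13609, chosen after its matches were seen as the called gene with the most W-boxes. They were read from the TAIR10.1 assembly and its RefSeq annotation, whereas the authors aligned to TAIR10. Each is written 5′ to 3′ on the strand of the gene, and capitals mark W-boxes, spelled TTGACC or TTGACT and read on both strands.
WRKY32, chr4:15054108-15054357, minus strand: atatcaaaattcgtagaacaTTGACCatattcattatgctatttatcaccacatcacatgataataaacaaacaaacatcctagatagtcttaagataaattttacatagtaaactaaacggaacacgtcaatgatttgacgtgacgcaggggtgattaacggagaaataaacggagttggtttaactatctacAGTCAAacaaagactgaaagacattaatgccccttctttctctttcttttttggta
AT1G52000, chr1:19336136-19336385, minus strand: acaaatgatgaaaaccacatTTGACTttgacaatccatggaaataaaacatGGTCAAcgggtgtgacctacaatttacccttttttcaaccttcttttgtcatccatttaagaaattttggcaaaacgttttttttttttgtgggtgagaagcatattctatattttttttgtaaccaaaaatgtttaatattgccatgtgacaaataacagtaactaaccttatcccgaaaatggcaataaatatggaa
AT3G01345, chr3:128888-129137, plus strand: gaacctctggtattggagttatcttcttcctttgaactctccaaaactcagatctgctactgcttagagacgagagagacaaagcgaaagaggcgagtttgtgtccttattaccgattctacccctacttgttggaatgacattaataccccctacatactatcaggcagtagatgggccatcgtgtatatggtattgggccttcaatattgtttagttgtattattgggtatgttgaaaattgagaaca
AT1G13609, chr1:4662448-4662697, plus strand: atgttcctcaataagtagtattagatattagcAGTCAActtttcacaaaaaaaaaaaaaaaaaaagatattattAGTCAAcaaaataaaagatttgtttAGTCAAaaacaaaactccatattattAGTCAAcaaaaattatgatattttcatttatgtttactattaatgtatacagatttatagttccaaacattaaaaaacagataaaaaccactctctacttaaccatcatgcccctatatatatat
WRKY32 held 2 W-boxes, the lectin gene AT1G52000 held 2, AT3G01345 held none and the defensin-like gene AT1G13609 held 4. A W-box was present in the promoters of 6 of the 23 genes that rose in csu5-3 (26.1%) and of 5 of the 25 that fell. It was present in 5270 of the 18853 promoters of tested genes that could be placed and in 27.5% of those of all 37879 annotated genes. These matches describe the letters of this window and say nothing about binding.

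A gene was called when limma's adjusted p was under 0.01 with a fold of more than 1.5, the limits given with the series, and "rose" and "fell" are kept for such genes. In csu5-3, 23 genes rose (0.121% of those tested) and 25 fell (0.132%), together 48 genes (0.253%). In all 48, every csu5-3 library lay on one side of every Col library, as it did above Col in 14.1% and below Col in 13.3% of all tested genes. The genes that rose had log2 folds from 0.60 to 1.83 with a median of 0.81, and those that fell had −0.59 to −4.15 with a median of −0.80. More than 2-fold rises numbered 6 and more than 2-fold falls 7. The median absolute log2 fold over all tested genes was 0.114 in csu5-3 and 0.252 in csu5-1, each against the same Col libraries, and 2968 genes (15.6%) were called in csu5-1.

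**Figure D1:**
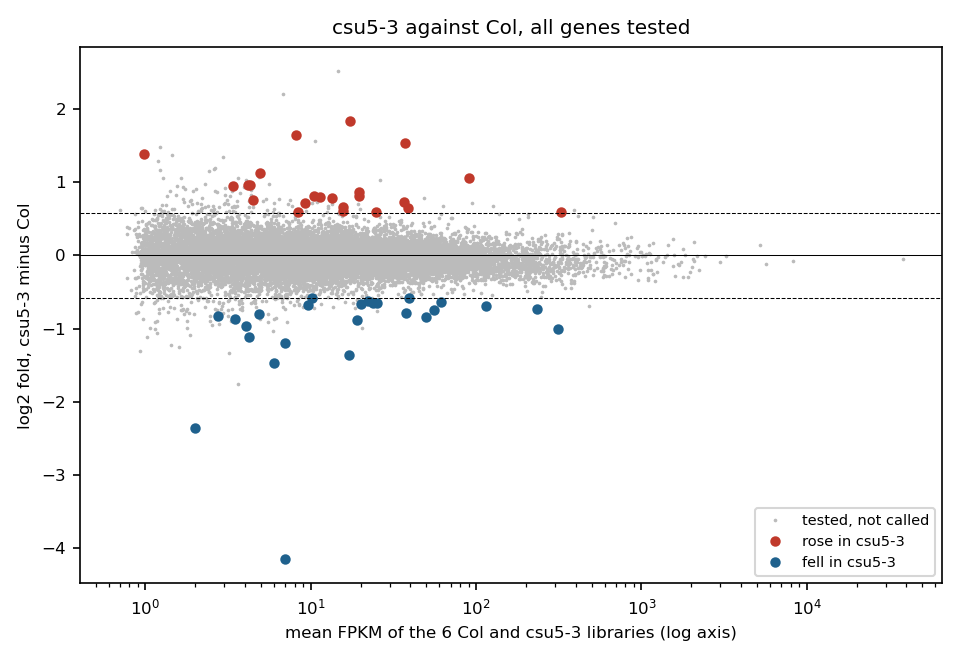
Log2 fold of csu5-3 against Col (vertical axis) against the mean FPKM of the 6 libraries (horizontal log axis) for the 18977 tested genes, with dashed lines at a fold of 1.5. The 23 genes that rose (red) and the 25 that fell (blue) are spread over low and high levels, and AT3G01345 stands lowest at −4.15.

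The share of genes called was alike across levels, 0.258% of genes below 5 FPKM and 0.350% of those above 100 FPKM. Without the fold limit, 116 genes passed an adjusted p of 0.01, and at an adjusted p of 0.05 the numbers were 411 higher (2.17%) and 609 lower genes (3.21%), 5.37% together. The count of 48 depended on single libraries. It was 10 when Col replicate 1 was left out and 27 when Col replicate 3 was. It was 32 with csu5-3 replicate 1 left out and 21 with csu5-3 replicate 2 left out. The largest adjusted p that any of the 48 reached in a fit without 1 library was 0.046, and for 35 of them the largest was the one without Col replicate 1. It is given below for genes it takes over the limit. Col replicate 1 lay farthest from csu5-3 in 15 of the 23 genes that rose and 15 of the 25 that fell, and csu5-3 replicate 2 was the highest in 17 of the 23. Every called gene that could be tested kept its sign in each of the fits run, and 9 of the 48 stayed called whichever of the 9 libraries was left out: AT1G52000, BGLU18, LOX1, AT5G48490, IAA2, DIR1, AT4G25580, WRKY32 and AT1G22690.

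**Figure D2:**
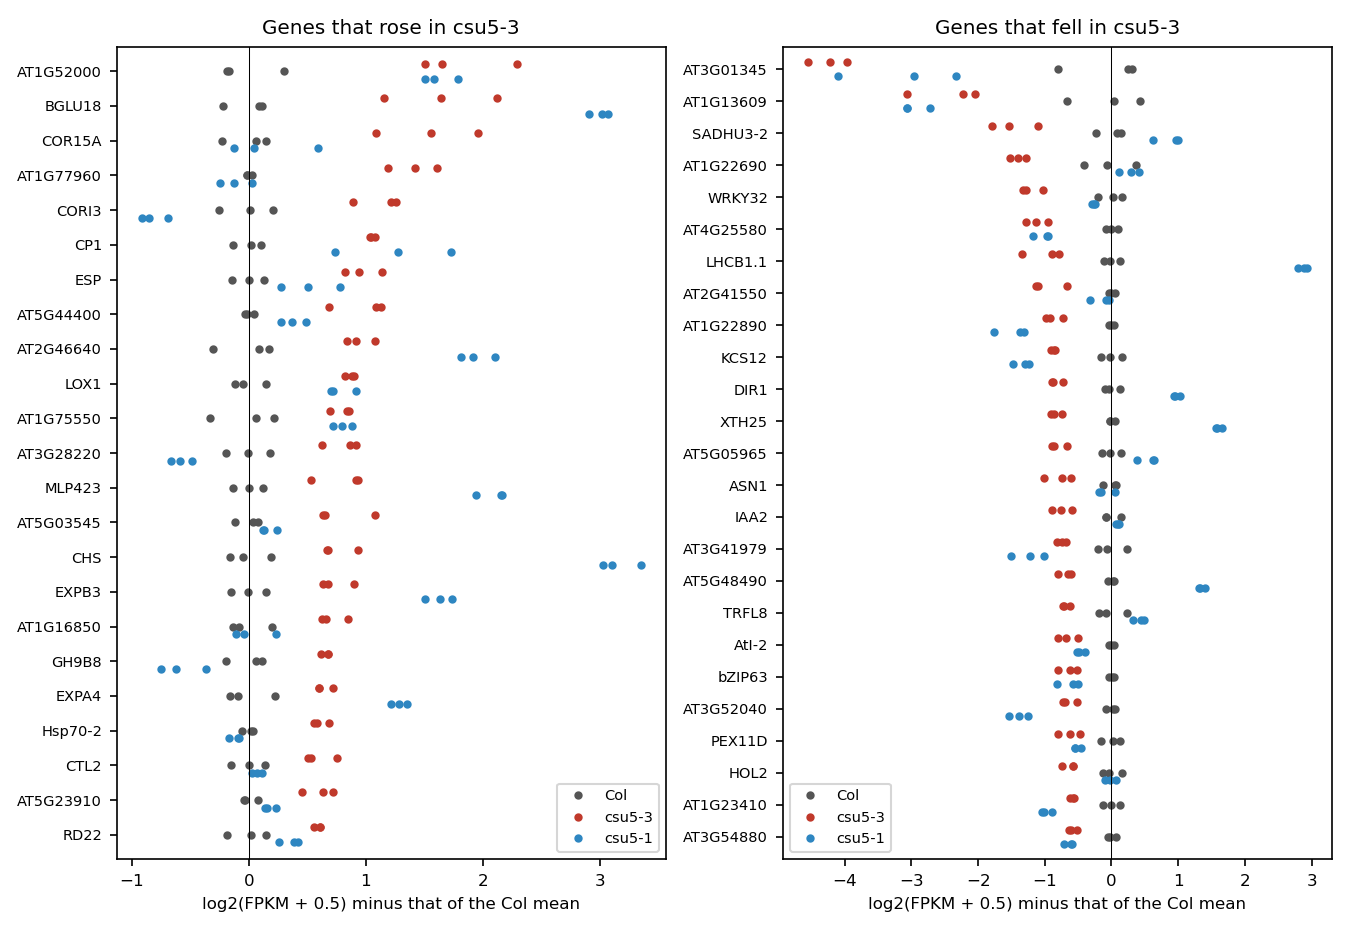
Each of the 48 genes called in csu5-3 is a row, and each point is a library, placed at its log2(FPKM + 0.5) minus that of the Col mean (Col grey, csu5-3 red, csu5-1 blue). The red points lie to one side of the grey ones in every row, while the blue points lie on the same side, on the other side or among the grey ones, as for LHCB1.1, where csu5-3 fell and csu5-1 rose.

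Several of the genes that rose belong to defence. Jasmonate is a lipid hormone of wounding and defence that acts through MYC2. It is made from fatty acids by some of the lipoxygenases and by AOS and AOC enzymes. Seedlings keep beta-glucosidases in endoplasmic reticulum bodies as a ready defence. AT1G52000, a mannose-binding lectin gene, had 6.21, 8.90 and 6.30 FPKM in Col and 21.2, 36.98 and 23.44 FPKM in csu5-3. All csu5-3 libraries were above all Col libraries, and the gene rose by a log2 fold of 1.83 ± 0.18 (adjusted p = 0.00052), the largest rise among the called genes. BGLU18, a beta-glucosidase of endoplasmic reticulum bodies that can free abscisic acid from its glucose ester, had 3.03, 3.85 and 3.93 FPKM in Col and 8.66, 17.31 and 12.28 FPKM in csu5-3 (log2 fold 1.64 ± 0.18, adjusted p = 0.0011). ESP, which turns glucosinolate breakdown towards nitriles, rose from 2.63 ± 0.29 to 5.66 ± 0.695 FPKM (SD, n = 3, log2 fold 0.97 ± 0.15, adjusted p = 0.0059), and its adjusted p was 0.032 when Col replicate 1 was left out.

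LOX1, a lipoxygenase, was among the steadiest changes. It had 12.61, 13.2 and 15.26 FPKM in Col and 24.63, 25.64 and 25.92 FPKM in csu5-3, with a log2 fold of 0.87 ± 0.08 (adjusted p = 0.00052). LOX1 overlaps AT1G55030 on the opposite strand, and the sources do not say whether counting used strand. CORI3, a coronatine-induced lyase also used as a jasmonate-response gene, rose from 2.92 ± 0.535 to 6.99 ± 0.996 FPKM (SD, n = 3, log2 fold 1.13 ± 0.15, adjusted p = 0.0033, 0.018 without csu5-3 replicate 2). Of the 26 tested genes on the jasmonate list, LOX1 was the only one called. Its place on the list does not mean that LOX1 makes jasmonate, which was not tested. At an adjusted p of 0.05, 6 of the 26 genes (23.1%) were higher and none lower, against 5.37% of all tested genes in either direction. The median log2 fold of the 26 was 0.17 against −0.001 over all tested genes. Every csu5-3 library was above every Col library in 12 of the 26, as in 14.1% of all tested genes. Further members, chosen after their values were seen, were LOX2, which makes the precursor of jasmonate in chloroplasts, and AOC2 and AOS of the same route. LOX2 had 4.81, 5.84 and 4.57 FPKM in Col and 14.2, 19.4 and 14.66 FPKM in csu5-3 (log2 fold 1.56 ± 0.30, adjusted p = 0.016), AOC2 had a log2 fold of 0.72 (adjusted p = 0.017) and AOS one of 0.43 (adjusted p = 0.0072), so that each missed one of the limits. AOC3, of the same step as AOC2, was at −0.36 (adjusted p = 0.14).

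On the list of endoplasmic reticulum bodies and lectins, 24 genes were tested, of which BGLU18 and ESP rose, and the median was 0.16. At an adjusted p of 0.05, 7 were higher (29.2%) and none lower, against 5.37% of all tested genes. The 7 include ESM1 (0.31, adjusted p = 0.012), which counters ESP, and the lectin JAL22 (0.36, adjusted p = 0.020), named after their values were seen. Glucosinolates are sulfur-rich defence compounds of this plant family. None of the 17 tested genes on their list was called by limma, and 11 had an unadjusted p under 0.05 (against 22.2% of all tested genes). At an adjusted p of 0.05, 5 were higher (29.4%, against 5.37% of all tested genes in either direction). Of the 17, 15 had a log2 fold above 0, and the median was 0.24, the highest of all lists. The members of smallest p were MYB28, a regulator of the aliphatic branch, at 0.43 ± 0.09 (adjusted p = 0.018) and the glucosyltransferase gene AT2G31790 at 0.31 ± 0.06 (adjusted p = 0.018). The list's largest fold, CYP83A1 at 1.05 ± 0.37 (adjusted p = 0.12, named after its value was seen), rested on csu5-3 replicate 2, with 8.81 FPKM against 3.34 and 3.14 FPKM in the others and 0.88 to 3.23 FPKM in Col.

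**Figure D3:**
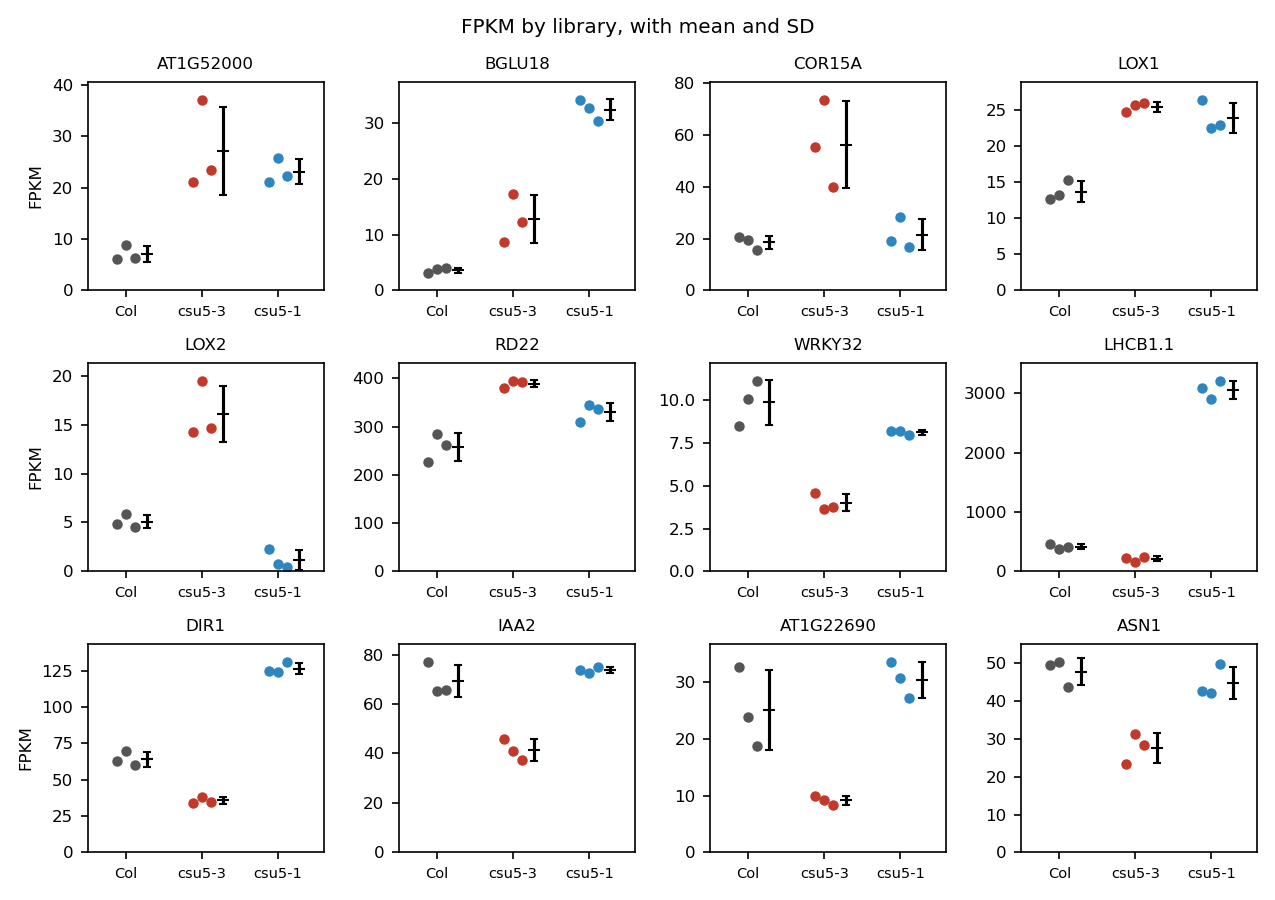
FPKM of 12 genes in each library (points), with the mean and SD of each genotype (bars to the right of the points, n = 3); LOX2 was not called and was chosen after its values were seen. The csu5-3 points lie above all Col points for AT1G52000, BGLU18, COR15A, LOX1, LOX2 and RD22 and below all of them for WRKY32, LHCB1.1, DIR1, IAA2, AT1G22690 and ASN1.

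Some genes of the water and cold response also rose. Abscisic acid is the hormone of water shortage, and many of its targets encode protective proteins that cold also induces. COR15A, a chloroplast protein that protects membranes during freezing, had 20.55, 19.31 and 15.68 FPKM in Col and 55.48, 73.26 and 40.01 FPKM in csu5-3. It rose by a log2 fold of 1.54 ± 0.20 (adjusted p = 0.0028, 0.012 without Col replicate 1), and its 3 csu5-3 libraries were widely spread. Its close relative COR15B was at 0.67 ± 0.21 (adjusted p = 0.082, named after its value was seen). RD22, a dehydration-responsive protein with a BURP domain, rose from 258 ± 29.6 to 389 ± 7.06 FPKM (SD, n = 3, log2 fold 0.60 ± 0.07, adjusted p = 0.0022, 0.010 without csu5-3 replicate 2). Of the 34 tested genes on the abscisic acid and drought list, BGLU18 and RD22 rose, and the median was 0.17. At an adjusted p of 0.05, 8 were higher and 1 lower (26.5% together, against 5.37% of all tested genes). The lower one was the dehydrin LTI30, at −0.34 (adjusted p = 0.023). On the cold list, COR15A was the only one of 14 tested genes to be called and the only one with an adjusted p under 0.05, and the median was 0.18. AT1G16850, an uncharacterized protein, rose by 0.72 ± 0.12 (adjusted p = 0.0086, 0.046 without Col replicate 1). The chaperone gene Hsp70-2 rose by 0.61 ± 0.07 (adjusted p = 0.0012). None of the 10 tested genes on the heat shock list was called by limma, 3 had an unadjusted p under 0.05 (against 22.2% of all tested genes), and the median was 0.08.

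A pair of genes with abscisic acid response elements in their promoters fell. AT4G25580, which encodes a CAP160 protein, a family named for cold acclimation in spinach, had 5.60, 5.94 and 6.41 FPKM in Col and 2.16, 2.47 and 2.84 FPKM in csu5-3, a fall of 1.12 ± 0.13 on the log2 scale (adjusted p = 0.0014). AT5G05965, annotated as a cell wall RBR3-like protein, fell by 0.80 ± 0.12 on the same scale (adjusted p = 0.0044, 0.019 without csu5-3 replicate 2), and it overlaps AT5G05960 on the opposite strand. Their upstream 250 bases in TAIR10.1 are shown as the promoters among called genes with 2 matches each to the core of the abscisic acid response element, ACGTGGC or ACGTGTC on either strand, which capitals mark.
AT4G25580, chr4:13055933-13056182, plus strand: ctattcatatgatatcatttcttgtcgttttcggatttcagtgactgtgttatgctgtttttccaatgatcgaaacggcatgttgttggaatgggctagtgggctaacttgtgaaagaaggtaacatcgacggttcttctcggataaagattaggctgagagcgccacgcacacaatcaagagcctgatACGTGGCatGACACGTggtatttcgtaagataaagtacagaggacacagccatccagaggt
AT5G05965, chr5:1792635-1792884, minus strand: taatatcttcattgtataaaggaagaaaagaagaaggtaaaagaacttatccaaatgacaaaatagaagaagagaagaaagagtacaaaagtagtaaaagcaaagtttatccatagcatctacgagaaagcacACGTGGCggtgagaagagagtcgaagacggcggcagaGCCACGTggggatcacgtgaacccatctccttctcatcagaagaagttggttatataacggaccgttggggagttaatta
This element was found in 4 of the 23 promoters of genes that rose and 5 of the 25 of genes that fell, against 7.33% of tested genes. Its letters can overlap those of the G-box, CACGTG, which bZIP factors such as HY5 bind and which was found in 3 of the 23 and 5 of the 25 promoters, against 7.38%. The promoter shares rest on few genes and were not tested.

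Genes of the cell wall were among both the genes that rose and those that fell. Expansins loosen the cell wall, and glycosyl hydrolases and xyloglucan endotransglucosylases remodel it. EXPB3 had 24.4, 30.17 and 26.97 FPKM in Col and 42.34, 50.98 and 43.64 FPKM in csu5-3, and rose by a log2 fold of 0.74 ± 0.09 (adjusted p = 0.0018, 0.010 without Col replicate 1). EXPA4 rose from 30.1 ± 4.46 to 47.3 ± 2.37 FPKM (SD, n = 3, log2 fold 0.65 ± 0.09, adjusted p = 0.0031, 0.015 without csu5-3 replicate 2). GH9B8, of a cellulase family, rose by 0.66 ± 0.11 on the log2 scale (adjusted p = 0.0074, 0.034 without Col replicate 1). CTL2, a chitinase-like protein linked to cellulose in secondary walls, rose by 0.60 ± 0.08 (adjusted p = 0.0038, 0.020 without Col replicate 1), and the glycine-rich protein gene AT1G75550 by 0.81 ± 0.12 (adjusted p = 0.0047, 0.020 without csu5-3 replicate 2). Opposite to these, XTH25 had 3.83, 3.62 and 3.60 FPKM in Col and 1.73, 2.00 and 1.81 FPKM in csu5-3 and fell by 0.83 ± 0.10 on the log2 scale (adjusted p = 0.0018, 0.012 without Col replicate 1). AT1G22690, of the gibberellin-regulated peptide family, fell from 32.61, 23.87 and 18.71 FPKM to 9.98, 9.21 and 8.38 FPKM, a log2 fold of −1.37 ± 0.15 (adjusted p = 0.0012), and it overlaps AT1G22700 on the opposite strand. Of the 23 tested genes on the cell elongation list, EXPA4 was the only one called, with a median of 0.02.

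The summed level of 3 xylem marker genes (IRX3, XCP1 and CESA8) was 50.96 to 56.66 FPKM in Col and 62.51 to 77.25 FPKM in csu5-3. None of the 3 was called, and the part of this sum in the wall gene values was not tested. Other cell types also had sums without overlap. Dividing cell markers were higher in csu5-3 (25.34 to 30.86 against 31.94 to 32.7 FPKM). Mesophyll (9814 to 10350 against 9177 to 9699 FPKM) and guard cell markers (23.13 to 25.38 against 19.5 to 21.81 FPKM) were lower. So were embryo and seed reserve markers (7.84 to 12.18 against 6.63 to 6.83 FPKM). Of all tested genes, 14.1% lay wholly above Col and 13.3% below. In whole seedlings, fewer cells of a type and less RNA per cell cannot be told apart.

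An auxin gene and genes of the energy status fell. IAA2, an auxin-induced repressor of auxin signalling, had 76.79, 65.33 and 65.64 FPKM in Col and 45.85, 40.91 and 37.23 FPKM in csu5-3, and fell by a log2 fold of −0.74 ± 0.08 (adjusted p = 0.0011). It was the only one of 28 tested auxin genes to be called. On this list 5 genes (17.9%) were lower at an adjusted p of 0.05 and none higher, against 5.37% of all tested genes in either direction. Log2 folds were below 0 in 20 of 28, and the median was −0.10. ATAUX2-11, another repressor of the family, passed the p limit with a fold under 1.5 (−0.53 ± 0.07, adjusted p = 0.0026), and the small auxin-up gene SAUR19 was at −0.89 (adjusted p = 0.012, named after its value was seen). ASN1, an asparagine synthetase that darkness and low sugar induce, fell from 47.7 ± 3.62 to 27.6 ± 3.93 FPKM (SD, n = 3, log2 fold −0.79 ± 0.10, adjusted p = 0.0022, 0.013 without Col replicate 1), and bZIP63, a transcription factor of low-energy signalling, fell by 0.65 ± 0.09 on the log2 scale (adjusted p = 0.0039, 0.023 without Col replicate 1). ASN1 overlaps AT3G47341 on the opposite strand.

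Among the genes of photosynthesis, 1 copy of the antenna fell. LHCB1.1, a copy of the main chlorophyll-binding antenna protein of photosystem II, had 456.73, 385.53 and 412.93 FPKM in Col and 224.85, 164.51 and 242.97 FPKM in csu5-3. The csu5-3 libraries were all below the Col libraries, and the gene fell by a log2 fold of −1.01 ± 0.12 (adjusted p = 0.0014, 0.012 without Col replicate 1). The family member CAB3 was at 0.02, with 1273.45, 1151.92 and 920.44 FPKM in Col and 1249.68, 1169.9 and 974.46 FPKM in csu5-3. LHCB2.1 (−0.50 ± 0.05, adjusted p = 0.00052) and LHCB2.2 (−0.49 ± 0.06, adjusted p = 0.0022) passed the p limit but not the fold limit, and as near-identical copies they may share reads. LHCB1.1 and CAB3, as copies within the family, may share reads too. How far the values of LHCB1.1, here and in csu5-1, belong to it alone is therefore uncertain. Over the 21 antenna genes, 18 had log2 folds below 0, and the median was −0.13. At an adjusted p of 0.05, 4 (19.0%) were lower and none higher, against 5.37% of all tested genes in either direction. None of the 36 photosystem and carbon fixation genes (median −0.05) and none of the 21 chlorophyll synthesis genes (median −0.08) was called by limma. At an unadjusted p under 0.05 were 9 and 5 of them, both near the 22.2% of all tested genes. At an adjusted p of 0.05, 4 of the 36 (11.1%) and 2 of the 21 (9.52%) were lower and none higher, against 5.37% of all tested genes. PORA, a protochlorophyllide reductase of dark-grown tissue, was low in both genotypes, at 1.12 to 1.88 FPKM in Col and 0.27 to 0.79 FPKM in csu5-3 (adjusted p = 0.015). PORA entered the test through its Col values alone.

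None of the 45 tested regulators of the light response was called by limma. Of them, 16 had an unadjusted p under 0.05 (against 22.2% of all tested genes), and 3 were higher and 5 lower at an adjusted p of 0.05 (17.8% together, against 5.37%). Their log2 folds ran from −0.72 to 0.34, with a median of 0.01. The −0.72 was that of STH (adjusted p = 0.020 by limma), named here after its value was seen, which overlaps AT2G31390 on the opposite strand. HY5 had 26.01, 20.76 and 19.96 FPKM in Col and 17.26, 18.59 and 19.78 FPKM in csu5-3 (log2 fold −0.25 ± 0.09, adjusted p = 0.13). COP1 was at 0.03 ± 0.06 (adjusted p = 0.82) and PIF4, a growth-promoting factor that light removes, at −0.05 ± 0.12 (adjusted p = 0.83). The HY5 homologue HYH came nearest, at −0.61 ± 0.11 (adjusted p = 0.012). Chalcone synthase, CHS, which opens the flavonoid pathway and is a classical HY5 target, rose from a low level, 2.82, 3.71 and 3.07 FPKM in Col to 5.38, 5.41 and 6.55 FPKM in csu5-3 (log2 fold 0.76 ± 0.12, adjusted p = 0.0072, 0.033 without Col replicate 1). CHS overlaps AT5G13940 on the opposite strand. Of the 16 tested flavonoid genes CHS was the only one called, and the median was 0.12. At an adjusted p of 0.05, 4 were higher and 1 lower (31.2% together, against 5.37% of all tested genes). The lower one was MYBL2, a repressor of anthocyanin synthesis, at −0.48 (adjusted p = 0.011). The flowering repressor FLC was at −0.35 ± 0.19 (adjusted p = 0.31), and the clock gene LHY at −0.53 ± 0.10 (adjusted p = 0.013).

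**Figure D4:**
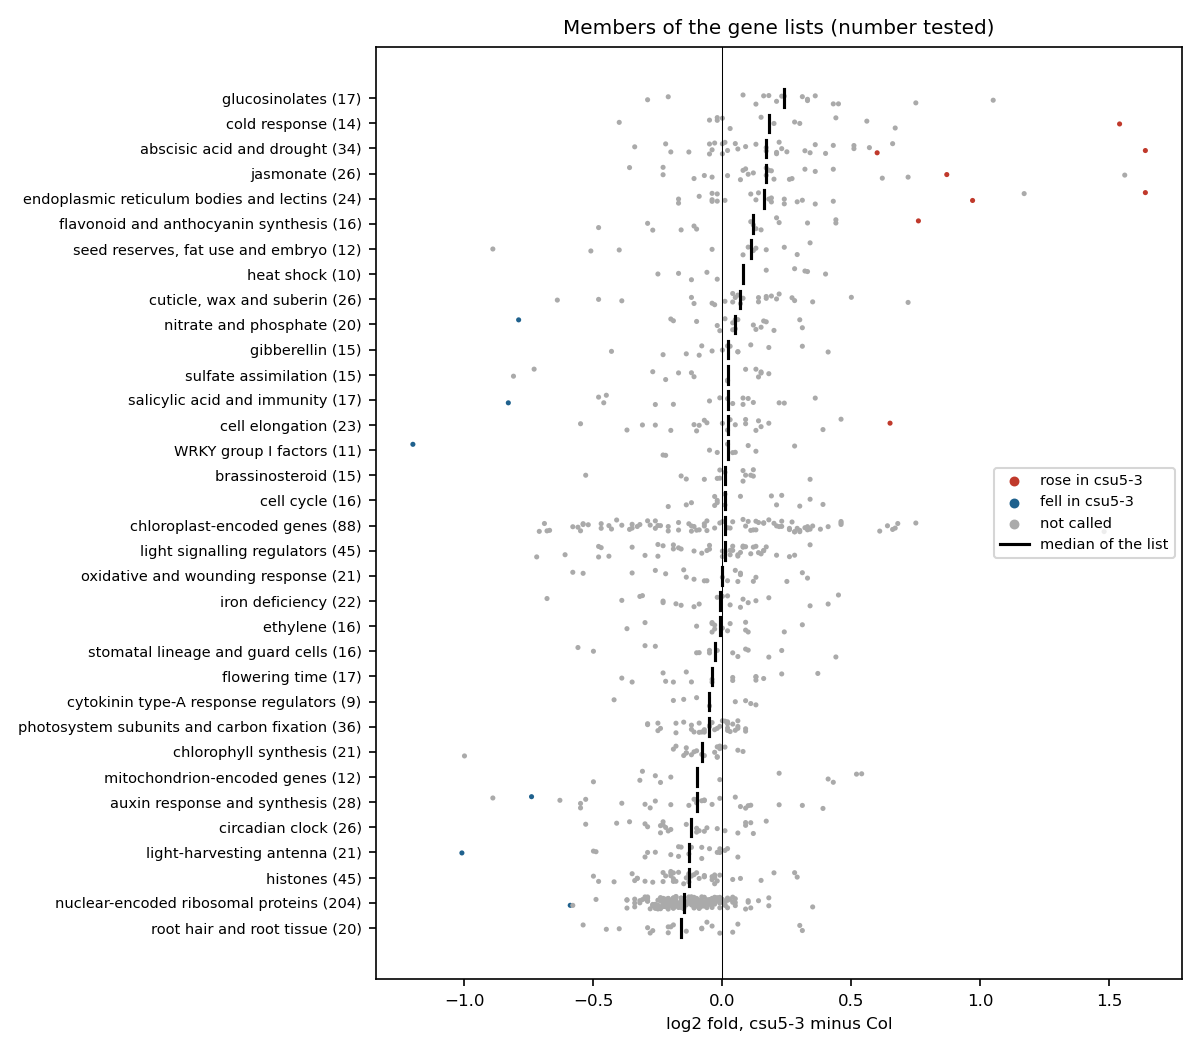
Log2 folds of csu5-3 against Col for the tested members of 34 gene lists (points, with the number tested after each name), with each list's median as a black bar. Most medians lie near 0, from −0.16 for root hair and root tissue genes to 0.24 for glucosinolate genes. Called members (red and blue) number at most 2 in any list.

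A pair of lipid transfer genes had the smallest adjusted p-values of the comparison. DIR1 encodes a lipid transfer protein that carries a signal of systemic resistance, and AT5G48490 encodes a protein of the same family. The genes stand next to each other among the tested genes. DIR1 had 62.55, 69.77 and 60.04 FPKM in Col and 34.29, 38.44 and 34.51 FPKM in csu5-3 (log2 fold −0.83 ± 0.06, adjusted p = 0.00025). AT5G48490 had 135.75, 143.82 and 142.89 FPKM in Col and 89.05, 80.34 and 92.67 FPKM in csu5-3 (log2 fold −0.69 ± 0.06, adjusted p = 0.00038). Both fell, with little spread within either genotype. DIR1 overlaps AT5G48480 on the opposite strand. DIR1 was the only gene called among 17 tested on the salicylic acid and immunity list (median 0.02). KCS12, which extends very-long-chain fatty acids, fell from 4.66 ± 0.558 to 2.33 ± 0.0681 FPKM (SD, n = 3, adjusted p = 0.0072, 0.042 without Col replicate 1), and PEX11D, a protein of peroxisome division, fell from 74.9 ± 7.65 to 48.3 ± 5.64 FPKM (SD, n = 3, adjusted p = 0.0038, 0.021 without Col replicate 1). None of the 26 genes of the cuticle, wax and suberin list was called by limma, 7 had an unadjusted p under 0.05 (against 22.2% of all tested genes), and the wax gene CER1 was at 0.72 ± 0.15 (adjusted p = 0.021).

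The largest falls were in genes of little-known function. AT3G01345, of unknown function, had 16.34, 7.64 and 16.9 FPKM in Col and 0.26, 0.40 and 0.10 FPKM in csu5-3, a log2 fold of −4.15 ± 0.40 (adjusted p = 0.00052). The defensin-like gene AT1G13609 had 5.14, 3.82 and 2.14 FPKM in Col, was listed at 0 in csu5-3 replicate 1 and had 0.52 and 0.40 FPKM in the others (log2 fold −2.36 ± 0.32, adjusted p = 0.0032). Both entered the test through their Col values alone, as AT1G77960 did through its csu5-3 values alone. SADHU3-2, from a family of short retrotransposon-derived elements, had 9.91, 9.48 and 7.52 FPKM in Col and 2.23, 3.90 and 2.77 FPKM in csu5-3 (log2 fold −1.47 ± 0.16, adjusted p = 0.0012, 0.010 without Col replicate 1). AT1G77960, annotated as a ROX1-like repressor, went from 0.307 ± 0.0115 to 1.65 ± 0.31 FPKM (SD, n = 3, log2 fold 1.39 ± 0.21, adjusted p = 0.0057, 0.025 without Col replicate 1) and overlaps AT1G77950 on the opposite strand.

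Most ribosomal protein and histone genes had log2 folds a little below 0. Of 204 tested ribosomal protein genes, 183 had log2 folds below 0. Every csu5-3 library was below every Col library in 100 of them, as in 13.3% of all tested genes. At an adjusted p of 0.05, 33 (16.2%) were lower with none higher, against 5.37% of all tested genes in either direction. The median was −0.15. Only AT1G23410, a ubiquitin and ribosomal protein fusion, was called, with 13.48, 11.21 and 12.24 FPKM in Col and 8.16, 7.80 and 8.07 FPKM in csu5-3 (log2 fold −0.59 ± 0.09, adjusted p = 0.0061, 0.033 without Col replicate 1), and it overlaps AT1G23400 on the opposite strand. The next by p, AT2G37190 at 251.11, 250.9 and 252.61 FPKM in Col and 195.49, 189.59 and 198.46 FPKM in csu5-3, was at −0.37 (adjusted p = 0.0061) and was named after its values were seen. Histone genes had a median of −0.13, with 39 of 45 below 0 and 8 lower at an adjusted p of 0.05 (17.8%, against 5.37%). None was called by limma, with 16 at an unadjusted p under 0.05 (against 22.2% of all tested genes). The ribosomal RNA gene AT3G41979 fell from 278.16, 252.94 and 344.09 FPKM to 174.96, 181.37 and 165.64 FPKM (log2 fold −0.73 ± 0.12, adjusted p = 0.0074, 0.031 without Col replicate 1). Ribosomal RNA is encoded by repeated gene copies, AT3G41979 overlaps AT3G06355, and the libraries were made from poly(A) RNA, so its value is uncertain. The summed ribosomal RNA was 807.0 to 1133 FPKM in Col and 517.7 to 659.7 FPKM in csu5-3, and its part in the other results was not tested.

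The other 7 genes that rose were of mixed kinds. CP1, a cysteine protease, went from 58.6 ± 5.00 to 122 ± 1.94 FPKM (SD, n = 3, adjusted p = 0.0083, 0.037 without Col replicate 1). The berberine-bridge-type oxidase gene AT5G44400 was at 0.97 ± 0.14 (adjusted p = 0.0038) and AT2G46640 at 0.96 ± 0.14 (adjusted p = 0.0044). The TRAF-like gene AT3G28220 was at 0.81 ± 0.10 (adjusted p = 0.0023) and MLP423 of the Bet v I family at 0.80 ± 0.11 (adjusted p = 0.0038). AT5G03545, which phosphate starvation induces, was at 0.79 ± 0.11 (adjusted p = 0.0038) and the motor protein gene AT5G23910 at 0.60 ± 0.09 (adjusted p = 0.0067). The other 7 genes that fell were equally mixed. AT2G41550 was at −0.97 ± 0.14 (adjusted p = 0.0049), AT1G22890, of unknown function, at −0.88 ± 0.11 (adjusted p = 0.0022) and TRFL8, of the telomere repeat binding factor-like family, at −0.68 ± 0.10 (adjusted p = 0.0057). The phosphatase inhibitor gene AtI-2 was at −0.67 ± 0.08 (adjusted p = 0.0014), AT3G52040 at −0.64 ± 0.08 (adjusted p = 0.0028), the methyltransferase gene HOL2 at −0.63 ± 0.08 (adjusted p = 0.0028) and the zinc finger gene AT3G54880 at −0.59 ± 0.06 (adjusted p = 0.00061). Of these 14 genes, AT3G54880 kept an adjusted p below 0.01 without any single library, and the others reached 0.011 (AtI-2) to 0.037 (CP1), each without Col replicate 1 or csu5-3 replicate 2. Of the 48 called genes, 14 overlap another annotated gene and are uncertain to that extent.

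Of the 34 gene lists, 12 held a called gene and 22 held none by limma. The nitrate and phosphate list held ASN1, with a median of 0.05 over 20 genes. Hormone lists with no called member had medians close to 0, at 0.02 for 15 gibberellin genes, 0.01 for 15 brassinosteroid genes, −0.01 for 16 ethylene genes and −0.05 for 9 cytokinin response regulators, with 2, 4, 4 and 1 genes at an unadjusted p under 0.05, where 22.2% of all tested genes stood. Within the ethylene list, EFE, an ethylene-forming enzyme, was at −0.30 ± 0.07 (adjusted p = 0.032), with 308.02, 267.32 and 272.88 FPKM in Col and 246.88, 214.93 and 226.96 FPKM in csu5-3. Every csu5-3 library was below every Col library. Among 15 sulfate assimilation genes (median 0.02, 4 at an unadjusted p under 0.05), the beta-glucosidases BGLU28 and DIN2 were at −0.81 (adjusted p = 0.036) and −0.73 (adjusted p = 0.022). The guard cell factor MYB60 was at −0.56 ± 0.10 (adjusted p = 0.012) on a list of 16 stomatal genes with a median of −0.03. The circadian clock list had a median of −0.12 over 26 genes, 9 of them at an unadjusted p under 0.05 (against 22.2% of all tested genes). Flowering genes (17, median −0.04), cell cycle genes (16, median 0.01), iron deficiency genes (22, median −0.01), oxidative and wounding genes (21, median 0.00) and the 12 seed reserve and embryo genes (median 0.11) held none that was called by limma. In this order, 5, 6, 8, 7 and 4 genes had an unadjusted p under 0.05, against 22.2% of all tested genes. Of the iron deficiency genes, 2 were higher and 3 lower at an adjusted p of 0.05 (22.7% together, against 5.37%). The 88 chloroplast-encoded genes had a median of 0.01 and the 12 mitochondrion-encoded genes one of −0.10, with 17 and 2 genes at an unadjusted p under 0.05, in both a share below the 22.2% of all tested genes. Log2 folds ran from −0.71 to 1.48 among the chloroplast genes. The 1.48 was that of ATCG00410, which entered the test through its csu5-3 values alone (0, 0.65 and 0.70 FPKM in Col and 2.22, 2.02 and 1.75 FPKM in csu5-3, adjusted p = 0.022).

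The values of csu5-1 for these genes stand beside those of csu5-3, with the reminder that both comparisons use the same Col libraries. Of the 23 genes that rose in csu5-3, 11 were called higher, 1 lower and 11 not called in csu5-1. Of the 25 that fell, 8 were called lower, 6 higher and 11 not called. In the direct contrast of the alleles, which uses the same csu5-3 libraries, 27 of the 48 were called, as were 2694 of all tested genes (14.2%). LOX1 and AT1G52000 were at like levels in both mutants, with means of 25.4 and 23.9 FPKM and of 27.2 and 23.1 FPKM in csu5-3 and csu5-1. Their differences between alleles were 0.00 ± 0.08 (adjusted p = 0.98) and −0.11 ± 0.18 (adjusted p = 0.66). AT4G25580 was also low in both, with 2.49 and 2.68 FPKM. LHCB1.1, DIR1, AT5G48490, AT5G05965, XTH25 and SADHU3-2 fell in csu5-3 and were higher than Col in csu5-1. For LHCB1.1 the means were 418 FPKM in Col, 211 FPKM in csu5-3 and 3060 FPKM in csu5-1. CORI3 was the reverse, with 2.92, 6.99 and 1.44 FPKM. COR15A, Hsp70-2, IAA2 and ASN1 were called in csu5-3 with csu5-1 log2 folds of 0.26, −0.03, 0.18 and −0.01 against Col.

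Some genes stood just outside the limits. The 10 smallest p-values among genes with adjusted p below 0.01 and a fold under 1.5 belonged to LHCB2.1, LHCB2.2, SAHH2, AT2G15960, UGT73B2, AT2G42220, CYP705A19, AT5G19190, ATAUX2-11 and PR4. SAHH2, of the methylation cycle, was at 0.51 ± 0.05 (adjusted p = 0.00071), with 58.16, 59.12 and 56.58 FPKM in Col and 85.52, 82.49 and 80.87 FPKM in csu5-3. The stress-related AT2G15960 was at −0.56 ± 0.06 (adjusted p = 0.0011). With a fold above 1.5 and an adjusted p just over the limit, at 0.010 to 0.011, stood AT1G62770 (−0.64), AT1G28190 (−0.65), AT5G46730 (0.79), AT5G44572 (−0.60) and AT1G10050 (0.63). Just inside the fold limit were AT1G23410 and AT3G54880, both at −0.59, and RD22, CTL2 and AT5G23910 at 0.60.

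The called genes lay on all 5 chromosomes, with 0.173% (chromosome 4) to 0.314% (chromosome 2) of tested genes called. Besides the DIR1 pair, AT3G41979 and SADHU3-2 stood 7 tested genes apart, and both fell. A principal component analysis of the 6 libraries placed Col at −19.75 to −9.877 and csu5-3 at 11.52 to 16.82 on the leading axis, which held 36.6% of the variance. Of 34 markers of seedling, seed and flower cell types, 29 were tested, and LHCB1.1 was the only one called. The markers LEC1 of embryos and AP1 of flowers were at 0 in all 6 libraries.

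**Figure D5:**
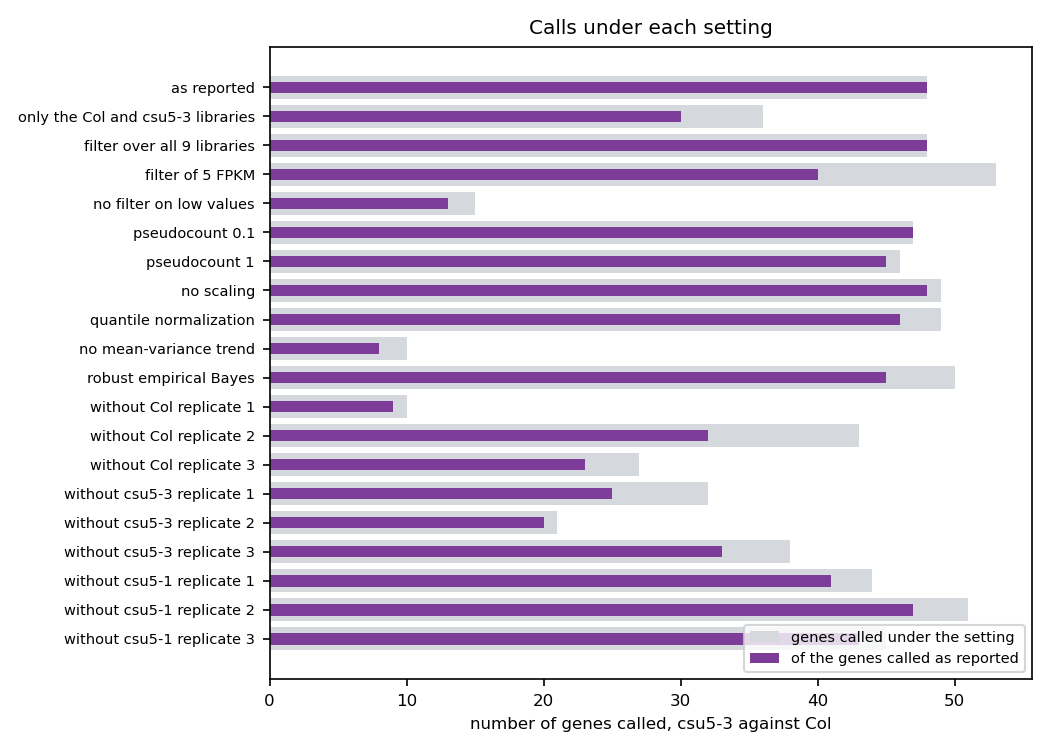
Number of genes called in csu5-3 against Col under the settings drawn (grey bars) and how many of the 48 reported genes were among them (purple bars). The plot leaves out the replicate block. Among the settings drawn, the counts run from 10, without Col replicate 1 or without the mean-variance trend, to 53 with a filter of 5 FPKM.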

How the data were processed

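RNA of whole seedlings was sequenced in 9 libraries, 3 each of Col, csu5-3 and csu5-1. Per the submitters' processing notes, Trimmomatic, HISAT2 2.05 and HTSeq were used with TAIR10. The deposited files give a value per gene with no header, read here as FPKM from the values, since sums differ between libraries and low values of short genes are whole multiples of 1 read. At the depths given, 76.1% to 84.9% of the low values used were whole to within 0.1 read, and 9.42% to 11.2% were at depths elsewhere. The notes do not state the authors' step from HTSeq counts to FPKM. RPKM cannot be told apart from it. A count test, planned only in case the values were raw counts, was therefore not used.

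limma 3.58.1 in R 4.3.3 was run with its mean-variance trend on log2(FPKM + 0.5). Libraries were scaled beforehand by a trimmed mean of log ratios, with a share of 0.3 cut from each end. All 9 libraries entered 1 fit with a mean per genotype, and p-values were adjusted (Benjamini-Hochberg) over 18977 genes. Log2 folds understate changes of low genes. The procedure was tested on simulated data. No 2 libraries were copies of each other. Names, neighbours, overlaps and promoters came from the RefSeq annotation of TAIR10.1, and the files hold no coordinates. Genes named are all called genes, WRKY32, HY5, COP1, PIF4, CHS and FLC, the called or 2 smallest-p members of each list, and genes nearest the limits. Cell type markers aside, most other genes are marked as chosen after their values were seen. WRKY3, WRKY19, AOC3, LTI30, MYBL2 and the named neighbours of WRKY32 carry no such mark but are also outside the rule. A gene that this rule names is not reported here. Members and lists were chosen with earlier results of these data known, so a list's direction is no independent evidence. Alternatives changed the libraries, filter, pseudocount, scaling, block, trend, thresholds and empirical Bayes step. Python 3.11.15, pandas 2.3.3, numpy 2.4.6 and matplotlib 3.10.9 were also used.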

Additional observations from a re-analysis of the deposited data

Results flagged for a closer look

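For 27 of the 48 genes called in csu5-3 against Col, the 2 alleles differed in the direct contrast of csu5-1 with csu5-3 (limma, adjusted p below 0.01 and a fold above 1.5, given as log2 of csu5-1 minus csu5-3). The contrast uses the same csu5-3 libraries that entered the calls against Col, so a gene whose csu5-3 libraries are extreme can pass both.

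Among genes that rose in csu5-3, the value was higher still in csu5-1 for BGLU18 (1.45), AT2G46640 (1.08), MLP423 (1.38), CHS (2.49), EXPB3 (0.98) and EXPA4 (0.73). It was lower in csu5-1 than in csu5-3 for COR15A (−1.28), AT1G77960 (−1.48), CORI3 (−1.87), AT3G28220 (−1.30), AT1G16850 (−0.60), GH9B8 (−1.15) and Hsp70-2 (−0.64). Among genes that fell in csu5-3, csu5-1 was higher than csu5-3 for HOL2 (0.69), TRFL8 (1.19), AT5G48490 (2.12), IAA2 (0.92), ASN1 (0.78), AT5G05965 (1.44), XTH25 (2.52), DIR1 (1.90), AT2G41550 (0.90), LHCB1.1 (3.96), WRKY32 (1.02), AT1G22690 (1.76) and SADHU3-2 (2.42). It was lower than csu5-3 for AT3G52040 (−0.66).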

How the results depend on the processing

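WRKY32 was called under every alternative, with log2 folds from −1.28 to −1.12 outside the leave-one-out fits and from −1.30 to −1.12 within them. Counts of called genes moved more, given here as higher and lower genes and, where it could be fitted, genes that also differed between the alleles (23, 25 and 27 as reported). Using only the 6 Col and csu5-3 libraries gave 15 and 21. No filter on low values gave 4, 11 and 7, and no mean-variance trend gave 5, 5 and 8. An adjusted p of 0.05 with the fold limit gave 74 and 74, and without it 411 and 609. Leaving out each library in turn gave 4 to 25 higher genes, 6 to 26 lower genes and 6 to 28 allele differences, the lowest of each without Col replicate 1. Other pseudocounts, scalings, filters and the robust step kept the counts within 1.5 times. The cause of these moves was not tested.

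The replicate block gave 34, 45 and 46, and all 48 reported calls were among its 79. Same-numbered Col and csu5-3 libraries deviated together with correlations of 0.0668, 0.174 and 0.159, each the highest for its library, a hint from the data and not from the design. Of the 48 calls, 5 held under every alternative: WRKY32, AT4G25580, DIR1, AT5G48490 and LOX1. List medians moved by 0.21 at most (mitochondrion-encoded genes, filter of 5 FPKM). Of the 14 lists with a median of at least 0.1 in size, the sign changed for seed reserve genes without the filter and for mitochondrion-encoded genes without csu5-3 replicate 1 or 3. Of the checks of single named genes, 254 lost the call and 6 gained it, with the sign kept. Low genes had larger errors, with a median SE of 0.17 below 5 FPKM and 0.058 above 100 FPKM.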
